A study of Mus musculus with 6 samples.

Results

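The 34 genes described here are markers of microglia, the resident macrophages of brain, and of macrophages more broadly. They were taken from a fixed list of symbols, and all 34 were found by exact symbol among the 24421 genes of the count table. Levels were read in 6 RNA libraries from a RiboTag experiment, a method in which recombined cells carry an HA tag on ribosomal protein Rpl22, and their ribosomes and bound mRNA are pulled down (immunoprecipitated, IP) by the tag. Control mice were NG2CreERTM;Rpl22HA/+ and the knockout mice (icKO) were NG2CreERTM;Ank3F/F;Rpl22HA/+, with both Ank3 alleles floxed. Ank3 encodes ankyrin-G, a membrane scaffold. All mice, controls included, carried the driver and the tagged allele and received tamoxifen (100 mg/kg/day for 5 days) when 8 weeks old, and were analysed 1 month later, after perfusion. Each library came from the whole brains of 3 pooled mice. The groups were control input (1 library of homogenate RNA taken before the pull-down), control IP (2), icKO input (1) and icKO IP (2). NG2 is made by oligodendrocyte precursors and by pericytes, so the driver is not restricted to the oligodendrocytes named in the labels, and microglia are not among the cells it is known for.

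Microglia descend from yolk sac progenitors and depend on the receptor CSF1R for survival. The transcription factors PU.1 (Spi1), IRF8 and SALL1 set their identity. They sense their surroundings through purinergic, chemokine and lipid receptors such as P2RY12, CX3CR1 and TREM2, engulf debris, and make the C1q chains that start the classical complement pathway.

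PU.1 binds the PU-box GAGGAA, so the 250 bases before the start of each member were searched for these letters on both strands. RefSeq promoters (GRCm38.p6, the same assembly as mm10) were matched for 27 of the 34 members. At least 1 match was present in 16 of these 27 genes (59.3%), against 6986 of 27025 genes in all (25.9%). By window, 17 of 33 member windows (51.5%) and 7639 of 32851 windows in all (23.3%) held a match. A match of these letters is a description and not a shown binding site. The windows of 3 members that were higher and 1 that was lower in the icKO pull-down are printed. They belong to members called between genotypes whose window held a match and overlapped no annotated exon, a choice made after their values were seen. All printed windows thus hold a match by choice. Of the other members called between genotypes, the Irf8 and Lgmn windows held no match, the Fcrls window held 1 but overlaps an annotated exon and is not printed, and Csf1r, Spi1 and C1qa had no entry. The calls of Trem2 and Ctss were lost under some alternatives given below. The capitals mark GAGGAA, or TTCCTC where the match is on the other strand. The Plek window lies inside the annotated Plek gene, upstream of a RefSeq start and outside exons, and the other windows overlap no annotated gene.
Inpp5d (chr1:87620062-87620311, plus strand): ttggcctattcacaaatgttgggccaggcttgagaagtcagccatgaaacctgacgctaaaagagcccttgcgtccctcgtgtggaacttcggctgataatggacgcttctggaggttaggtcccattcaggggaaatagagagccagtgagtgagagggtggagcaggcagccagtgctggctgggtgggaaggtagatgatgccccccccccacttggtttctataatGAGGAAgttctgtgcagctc
Plek (chr11:17008719-17008968, minus strand): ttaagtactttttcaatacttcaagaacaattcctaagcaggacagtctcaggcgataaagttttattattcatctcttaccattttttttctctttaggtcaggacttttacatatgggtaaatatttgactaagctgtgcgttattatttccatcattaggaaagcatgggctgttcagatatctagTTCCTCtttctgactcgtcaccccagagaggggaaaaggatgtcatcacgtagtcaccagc
Trem2 (chr17:48346151-48346400, plus strand): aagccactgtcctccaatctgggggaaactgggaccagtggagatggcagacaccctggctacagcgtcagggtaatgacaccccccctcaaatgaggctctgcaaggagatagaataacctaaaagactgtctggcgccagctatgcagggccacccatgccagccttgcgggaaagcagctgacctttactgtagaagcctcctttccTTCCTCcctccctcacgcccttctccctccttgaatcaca
Ctss (chr3:95526536-95526785, plus strand): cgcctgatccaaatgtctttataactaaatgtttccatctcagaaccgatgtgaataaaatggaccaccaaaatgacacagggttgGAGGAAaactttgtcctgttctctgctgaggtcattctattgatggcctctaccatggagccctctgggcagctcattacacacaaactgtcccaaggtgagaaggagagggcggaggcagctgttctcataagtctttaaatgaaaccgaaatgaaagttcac

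Total counts ran from 18968806 to 23930812 per library, and 3 counts correspond to 0.125 to 0.158 CPM, counts scaled to a fixed library total. Levels below are CPM scaled with TMM factors over all 6 libraries unless the 4 IP libraries are named. Gene models for coordinates were those of GENCODE vM21 on mm10. The pull-down held RNA of the driver's cells: Pdgfra, a precursor gene, was at 53.9 and 66.1 CPM in the inputs and between 2185 and 2241 CPM in the IPs, and Mbp, a myelin gene, was at 978 and 956 CPM against 3444 to 6073 CPM. Ank3 was at 1386 and 1357 CPM in the control IPs and 1163 and 1166 CPM in the icKO IPs, a count over the whole gene that can include reads outside the deleted part, and the labels do not name that part. Titles number the IP libraries as biological replicates without saying whether their pools held different mice, so p-values measure only how far these samples spread, and that spread may be technical.

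The first comparison asked how much of the members' input level the pull-down still held. Most of the list was strongly depleted. Of 34 members 29 were lower in IP than in input (85.3%, against 35.1% of all 15451 genes tested), 2 were higher (34.8% of all genes were) and 3 did not pass, by the quasi-likelihood test of edgeR (Benjamini-Hochberg adjusted p under 0.05) on 4 IP and 2 input libraries. The median log2 ratio of IP to input was -2.01 over the members, or 24.9% of input, and 0.01 over all genes tested. In the same 29 members all 4 IP libraries were below both inputs, in 2 all were above, and in 3 the fractions overlapped. The level in IP was under 25 percent of input for 17 members, between 25 and 50 percent for 9, and above that for 8. Summed over the list, input held 663 and 625 CPM (control, icKO) and the IPs 342 and 335 CPM (control) and 341 and 336 CPM (icKO). Without Lgmn and Sall1, the pair that was higher in IP, the sums were 525 and 492 CPM in input, 142 and 128 CPM in the control IPs and 161 and 162 CPM in those of icKO mice. For differences between genotypes in these bulk samples, fewer cells of a type and less RNA per cell cannot be told apart.

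**Figure D1:**
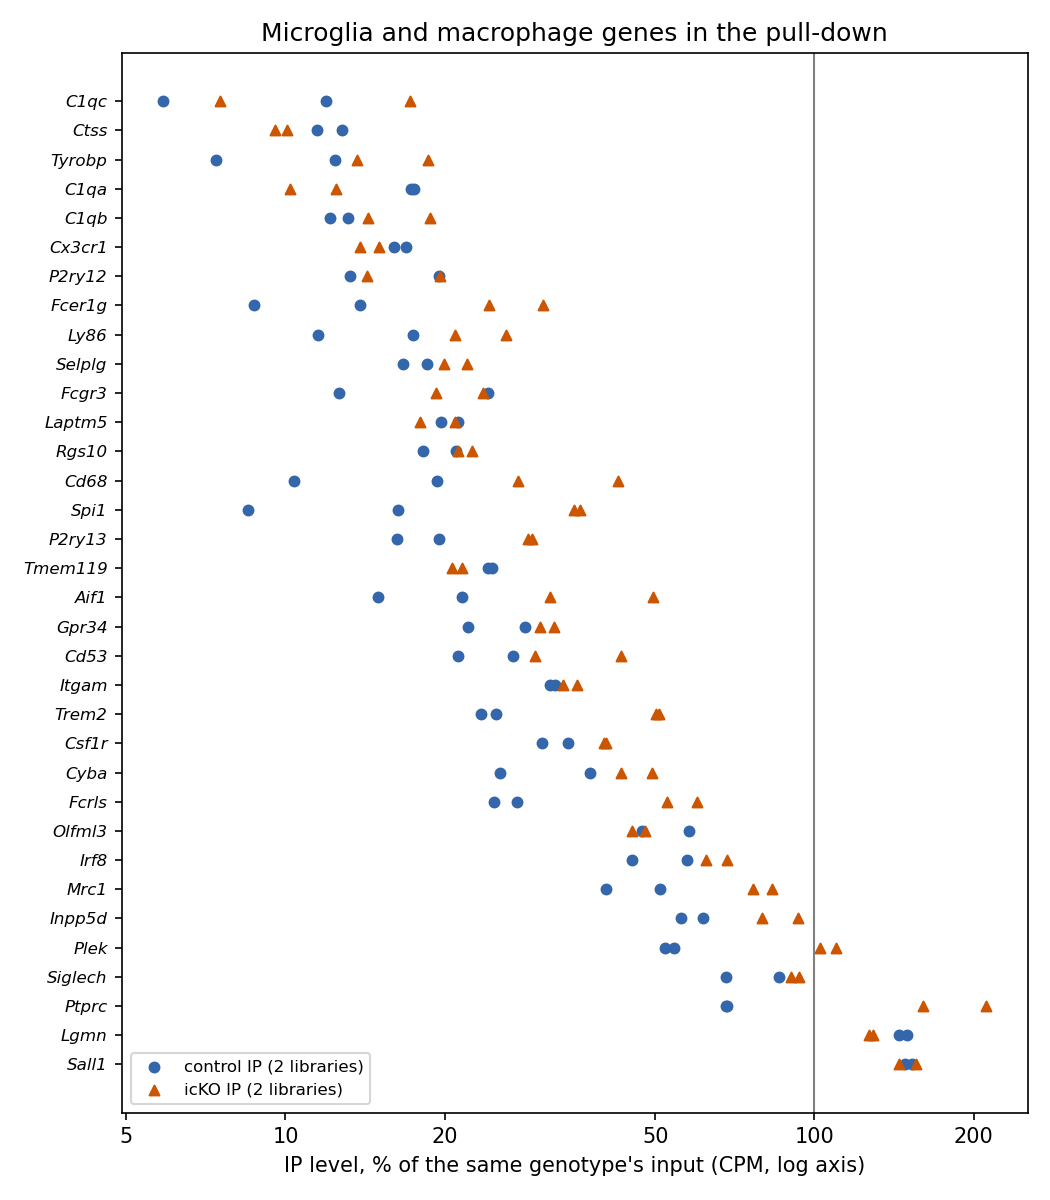
IP level of each of the 34 members as a percent of the input of the same genotype (CPM, log axis), 1 point per IP library (circles control, triangles icKO), ordered by the fitted ratio. Members from C1qc at the top to Irf8 and Mrc1 lie left of the line at 100 percent in all 4 libraries, and Lgmn and Sall1 lie right of it.

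The C1q chains were the most depleted role. These 3 genes, neighbours on chromosome 4 (C1qb 136880129 to 136886187, C1qc 136889804 to 136893065, C1qa 136895917 to 136898803), encode the subunits that recognise targets for complement. In control mice C1qa was at 22.02 CPM in input against 3.86 and 3.80 CPM in IP, and in icKO mice at 21.1 CPM against 2.63 and 2.15 CPM. C1qb was at 23.6 CPM against 2.86 and 3.10 CPM in control, and at 20.8 CPM against 3.92 and 2.98 CPM in icKO. C1qc was at 26.0 CPM against 3.10 and 1.53 CPM in control, and at 22.1 CPM against 1.66 and 3.81 CPM in icKO. Every IP value lay far below both inputs, with log2 ratios of -2.80 ± 0.16 (SE) for C1qa, -2.79 ± 0.15 for C1qb and -3.27 ± 0.26 for C1qc (adjusted p = 2.02e-07, 1.29e-07 and 2.35e-06). C1qc left 10.4% of its input level, the lowest share of the list.

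Of the 12 surface receptors and membrane proteins 10 fell in the IP, with a median log2 ratio of -1.80. Cx3cr1, the fractalkine receptor (chromosome 9, 119901616 to 120069879), was at 37.0 CPM in input against 6.24 and 5.94 CPM in IP in control mice, and at 37.5 CPM against 5.20 and 5.63 CPM in icKO mice. All 4 IP values were far below both inputs, and the log2 ratio was -2.69 ± 0.10 (adjusted p = 1.75e-08). The purinergic receptors P2ry12 (-2.59) and P2ry13 (-2.15), the adhesion ligand Selplg (-2.38), the microglial membrane protein Tmem119 (-2.14), the lysophospholipid receptor Gpr34 (-1.83), the tetraspanin Cd53 (-1.76) and the integrin chain Itgam (-1.59) fell as well. Csf1r, the receptor for CSF1 and IL-34 (chromosome 18, 61100598 to 61132149), was at 84.8 and 80.9 CPM in input and between 26.0 and 32.6 CPM in the IPs, 36.0% of input (-1.47 ± 0.09, adjusted p = 3.15e-07). Mrc1, the mannose receptor of border macrophages, kept 59.2% of input (-0.76 ± 0.21, adjusted p = 0.00996). That call rested on the control input and was lost without it, with Mrc1 at -0.33. Only the icKO IPs and the icKO input set that value, so the contrast within icKO (-0.32) is not a separate check. The 2 receptors that did not pass were Siglech, a sialic acid-binding lectin (-0.25 ± 0.15, adjusted p = 0.151), and Ptprc, the leukocyte phosphatase CD45 (0.06 ± 0.30, adjusted p = 0.864).

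Of 7 genes of TREM2, Fc receptor and immunoreceptor signalling 6 fell. Tyrobp (DAP12) and Fcer1g, small adaptors that pair with TREM2 and with Fc receptors, were at log2 ratios of -3.01 ± 0.29 and -2.49 ± 0.36. Counts were low: Tyrobp had 135 and 83 counts in the inputs and 10 to 16 in the IPs. The Fc receptor Fcgr3 was at -2.33, Trem2 at 35.4% of input, the Fc receptor-like Fcrls at -1.38 and the lipid phosphatase Inpp5d (SHIP1) at -0.50. Without the control input Inpp5d was at -0.21 and its call was lost. The contrast within icKO, set by the same libraries, was also at -0.21. Plek (pleckstrin, a protein kinase C substrate) did not pass (-0.43 ± 0.20, adjusted p = 0.0754). Fcgr3 belongs to a family of close relatives, among which the counting could have split reads.

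The lysosomal genes diverged. Ctss, the protease cathepsin S, fell from 55.8 and 48.3 CPM in input to between 4.61 and 7.15 CPM in the IPs (-3.19 ± 0.11, adjusted p = 8.12e-09). Laptm5 (-2.32) and Cd68 (-2.19), a lysosomal marker of phagocytes, fell too. Lgmn, the protease legumain (chromosome 12, 102394084 to 102439813), went the other way. It was at 109 and 104 CPM in input, 158 and 163 CPM in the control IPs and 135 and 132 CPM in the icKO IPs, 1 of the 2 members above both inputs in every IP (0.45 ± 0.07, adjusted p = 3.08e-04).

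Transcription factors diverged as well. Spi1 was at 2.92 and 2.82 CPM in input and 0.248 to 1.02 CPM in the IPs, from 6 to 19 counts (-2.18 ± 0.39, adjusted p = 6.29e-04), and Irf8 was at -0.78 ± 0.18 (adjusted p = 0.00342). Sall1, a zinc finger factor of microglia (chromosome 8, 89027235 to 89044162), was at 28.7 and 29.2 CPM in input, 42.5 and 43.9 CPM in control IPs, and 45.4 and 42.3 CPM in icKO IPs. It was the other member above both inputs in every IP (0.59 ± 0.08, adjusted p = 9.64e-05). The remaining 5 genes all fell: the MD-1 gene Ly86 (-2.42), the G protein regulator Rgs10 (-2.27), the IBA1 gene Aif1 (-1.88), the NADPH oxidase subunit Cyba (-1.43) and Olfml3 (-1.02).

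Members with longer transcripts kept more of their input level. Across the 34 members, Spearman's rho between union exon length and the log2 ratio of IP to input was 0.602, given as a description across genes that share the same 6 libraries. Over 14863 genes with a length it was 0.202. The 7 members under 1500 bases were at a median of 14.4% of input (10.99% to 37.2%) and the 8 over 5000 bases at 58.6% (33.2% to 150%). With an offset for transcript length, an alternative added after the data were seen, 29 members were again lower (34.7% of all genes were). The median of the 34 members was then -1.66. Union lengths include every annotated isoform, which for Ptprc sums to 18313 bases.

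**Figure D2:**
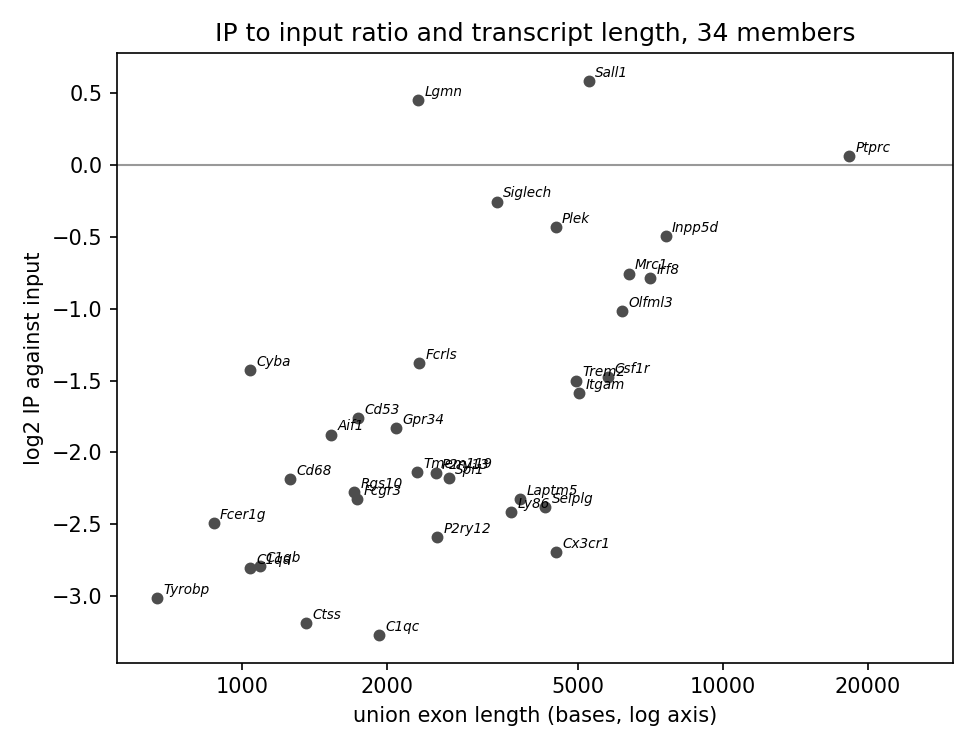
log2 ratio of IP to input (vertical) against union exon length in bases (log axis) for the 34 members, 1 point per gene. Short genes such as Tyrobp lie at the bottom left and long ones such as Inpp5d and Ptprc at the upper right, with Lgmn and Sall1 above 0.

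Beside other cells that the driver does not mark, the microglial list stood at a median of -2.01, neuron genes at -2.11 (18 of 20 lower), astrocyte genes at -1.71 (18 of 20) and endothelial genes at -0.73 (13 of 20). Of all genes tested 35.1% were lower. Precursor, pericyte and mature oligodendrocyte genes were at 3.65, 3.47 and 2.54. When libraries were scaled to the summed neuron, astrocyte and endothelial genes, 21 of the 34 members were still lower in IP (5.97% of all genes were). The median of the members was then -0.84, while that of all genes moved to 1.18. The sum used for this scaling included the non-coding neuron genes Meg3 and Snhg11, which stood at 145% and 207% of input. Their part in the values under this scaling was not tested. Scaled to mature oligodendrocyte genes, all 34 were lower, Lgmn (-2.02) and Sall1 (-1.89) included, as were 92.5% of all genes, whose median was -2.47.

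**Figure D3:**
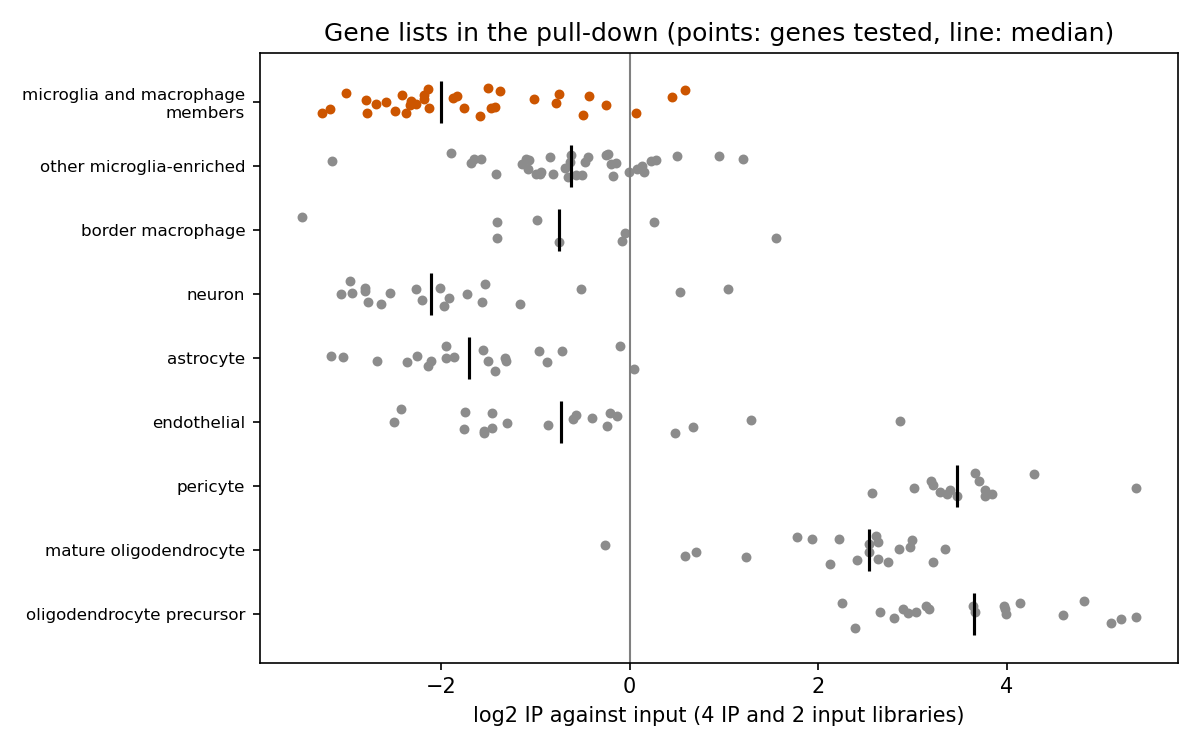
log2 ratio of IP to input for each tested gene of 9 lists (points) with the list's median (line). The 34 members (top) lie mostly between -3.27 and 0, like neuron genes, while precursor, pericyte and oligodendrocyte genes lie right of 0.

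Other genes of the same cells were read from lists kept apart from the members. Over all genes tested 35.1% fell in the IP and 34.8% rose. Of 37 tested other microglia-enriched genes 18 fell, 3 rose and 16 did not pass (median -0.62). Among those that fell were Hcls1 (-1.90), Coro1a (-1.68), an actin regulator, and Rnase4 (-1.65). Of 18 microglia activation genes 11 fell and 6 rose, with the lysozyme gene Lyz2 at -3.08, the ferritin chain Fth1 at -1.83 and the tetraspanin Cd9, which is also made by oligodendrocyte lineage cells, at 3.26. Of 16 ligands and partners of microglia receptors 9 fell and 3 rose. Cx3cl1, the neuronal ligand of CX3CR1, was at -2.12, Sirpa at -1.40 and the complement protease gene C1s1 at 2.16. Of 9 tested border macrophage genes 2 fell and 0 rose. Of 14 blood leukocyte genes found by symbol 1 was tested, S100a9, which fell (-3.03). The summed level of the 14 was 3.15 and 2.68 CPM in input and 0.537 to 0.965 CPM in the IPs.

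The second comparison asked whether the transcripts of the members in the pull-down differed between icKO and control. Of 34 members, 7 were higher in the icKO IPs (20.6%, against 22.1% of 15069 genes tested), 3 were lower (8.8%, against 25.2%) and 24 did not pass, in a fit of the 4 IP libraries. The share of members that rose was thus near that of all genes. The median log2 change was 0.21 over the members and 0.00329 over all genes tested. Both icKO IPs were above both control IPs for 15 members (44.1%, against 35.5% of all genes), both were below for 5 (14.7%, against 36.5%), and the groups overlapped for 14. All 34 members passed the filter on low counts, though 22 were under 5 CPM in all 4 IP libraries.

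Immunoreceptor signalling genes supplied 4 of the 7 that rose, in a grouping drawn up with earlier results of these data known. Fcrls (chromosome 3, 87250758 to 87263738) was at 4.19 and 3.80 CPM in the control IPs and rose to 9.01 and 7.89 CPM in those of icKO mice, against 15.3 and 15.0 CPM in the control and icKO inputs. The groups did not overlap, and the inputs were nearly equal. In the IP fit it went from 3.93 ± 0.28 to 8.31 ± 0.78 CPM (SD, n = 2 each), 2.12-fold (log2 1.09 ± 0.18 SE, adjusted p = 4.68e-06). Trem2 (chromosome 17, 48346401 to 48354147), the lipid-sensing receptor whose promoter is printed above, was at 1.24 and 1.32 CPM in the control IPs and 2.57 and 2.54 CPM in the icKO IPs, from 26 and 32 to 48 and 46 counts. Its inputs were at 5.29 and 5.06 CPM, and the change was 1.99-fold (0.99 ± 0.32, adjusted p = 0.0101). Plek (chromosome 11, 16971206 to 17052381) was at 7.53 and 7.22 CPM in the control IPs and 10.99 and 11.8 CPM in the icKO IPs, with inputs of 13.9 and 10.7 CPM (1.54-fold, 0.63 ± 0.14, adjusted p = 3.61e-04). Both icKO IPs thus stood above their own input, and both control IPs below theirs. Inpp5d (chromosome 1, 87620312 to 87720507), whose product opposes phosphoinositide signals downstream of such receptors, was at 12.0 and 10.9 CPM in the control IPs and 18.2 and 15.6 CPM in the icKO IPs, with inputs of 19.5 and 19.6 CPM (1.48-fold, 0.56 ± 0.12, adjusted p = 2.02e-04). The adaptor Fcer1g was at 0.90 ± 0.56 (adjusted p = 0.194), Tyrobp at 0.12 ± 0.55 and Fcgr3 at -0.18 ± 0.33.

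The other members that rose were Spi1, Irf8 and Csf1r. Spi1 (chromosome 2, 91082390 to 91115756) was at 0.477 and 0.248 CPM in the control IPs and 1.02 and 0.993 CPM in the icKO IPs, from 10 and 6 to 19 and 18 counts (2.80-fold, 1.49 ± 0.55, adjusted p = 0.026). Irf8 (chromosome 8, 120736358 to 120756694) was at 3.15 and 2.48 CPM in the control IPs and 4.13 and 4.53 CPM in the icKO IPs, with inputs of 5.47 and 6.62 CPM (1.55-fold, 0.63 ± 0.23, adjusted p = 0.0239). Csf1r was at 29.0 and 26.0 CPM in the control IPs and 32.6 and 32.4 CPM in the icKO IPs, with inputs of 84.8 and 80.9 CPM (1.19-fold, 0.25 ± 0.08, adjusted p = 0.0135). Groups did not overlap for any of these genes.

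Lgmn, which stood above both inputs in every IP, fell, as did the depleted Ctss and C1qa. Lgmn went from 157 ± 3.79 to 131 ± 1.76 CPM in the IP fit (SD, n = 2 each; log2 -0.26 ± 0.04 SE, adjusted p = 1.07e-06). Ctss (chromosome 3, 95526786 to 95556403) was at 7.15 and 6.40 CPM in the control IPs and 4.61 and 4.86 CPM in the icKO IPs (-0.51 ± 0.18, adjusted p = 0.0175), and its input was lower too, by 0.21 on the log2 scale. C1qa, with the IP values given above, was at -0.67 ± 0.25 (adjusted p = 0.0234), while its neighbours C1qb (0.21 ± 0.24, adjusted p = 0.496) and C1qc (0.26 ± 0.33, adjusted p = 0.548) did not pass. Of the other receptors Cx3cr1 was at -0.17 ± 0.18, P2ry12 at 0.14 ± 0.31, P2ry13 at 0.23 ± 0.42 and Tmem119 at -0.11 ± 0.28, none past the threshold. The values of the 24 members that did not pass ran from -0.29 for Cyba to 0.96 for Ly86.

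**Figure D4:**
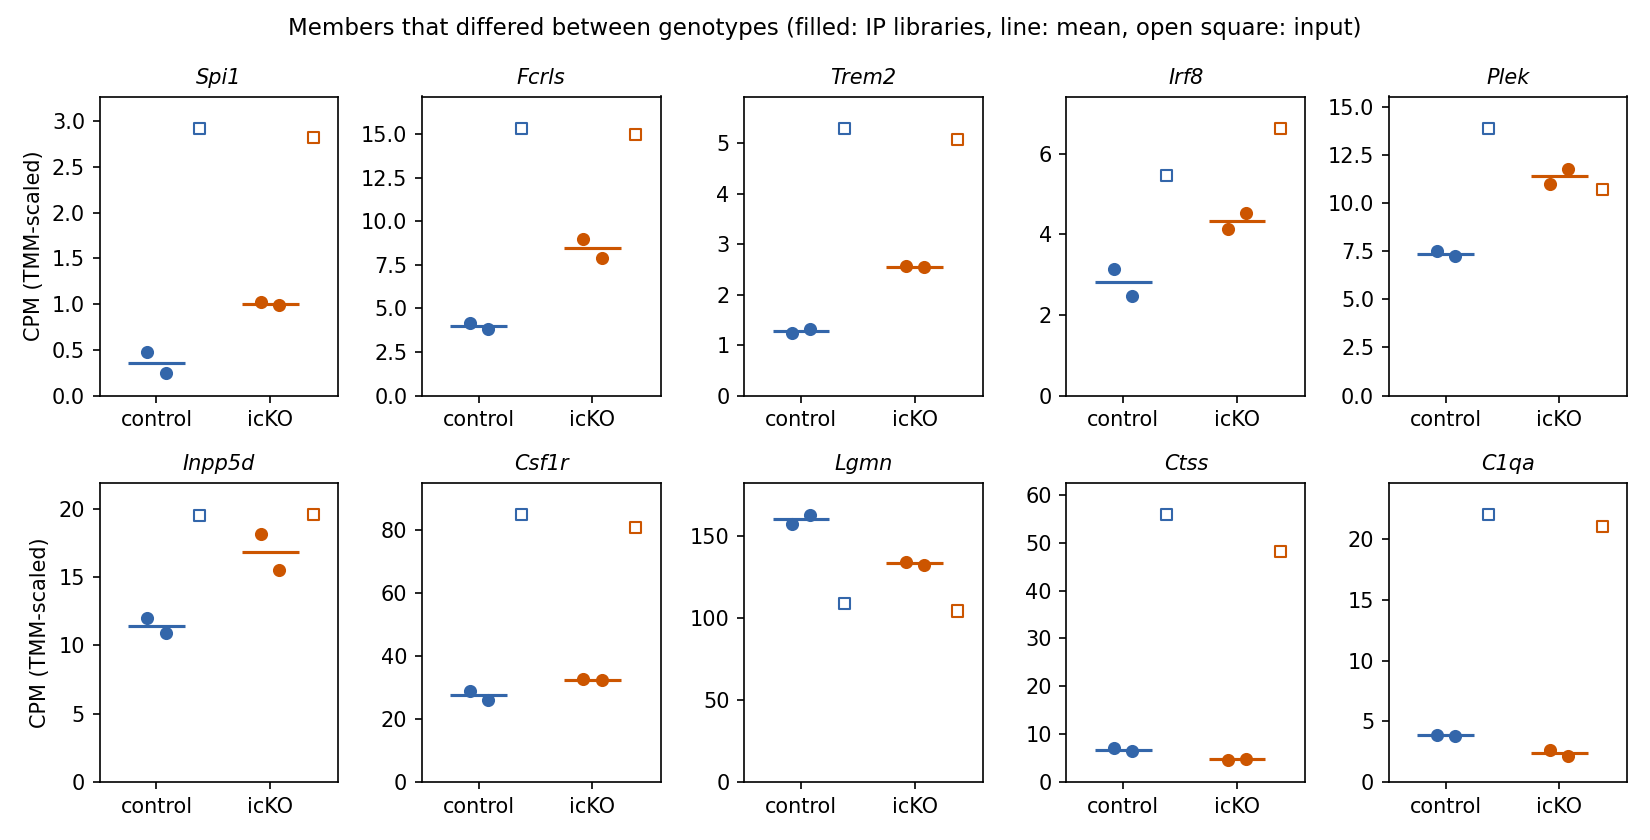
CPM (TMM-scaled over 6 libraries) of the 10 members that differed between genotypes: filled points are the 2 IP libraries of each genotype, lines their means, and open squares the single inputs. The genotypes do not overlap in the IP for any of the 10 genes, and Plek and Lgmn have IP points above the input of the same genotype.

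**Figure D5:**
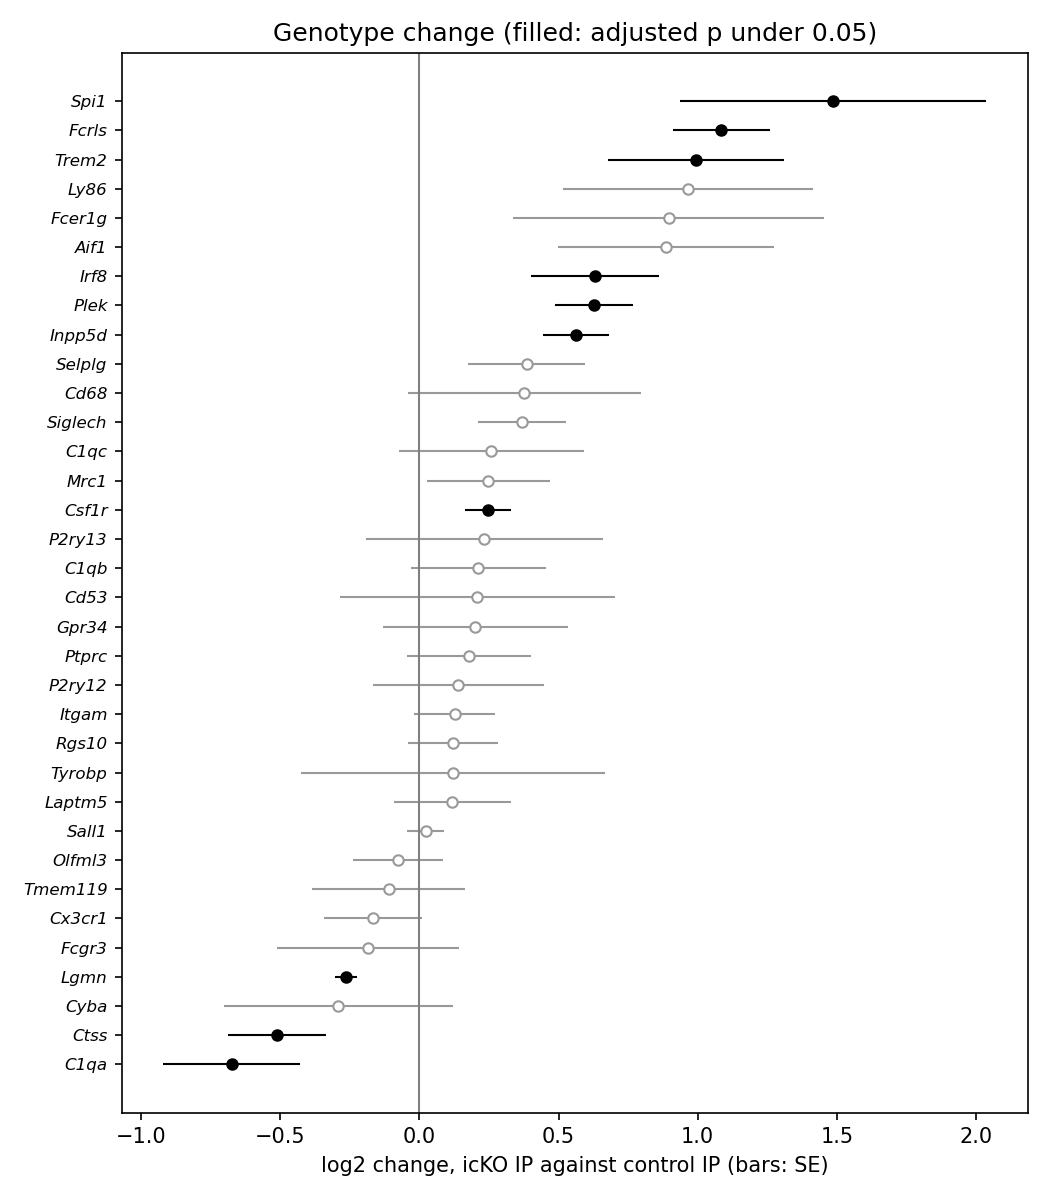
log2 change between icKO and control IP for the 34 members with the SE as bars, filled where the adjusted p was under 0.05. Values run from -0.67 for C1qa to 1.49 for Spi1, and the wide bars of Spi1, Fcer1g and Tyrobp belong to members of few counts.

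Only Fcrls, Inpp5d and Plek kept their call under every alternative run, with a log2 change from 0.80 to 1.79 for Fcrls, 0.28 to 1.27 for Inpp5d and 0.35 to 1.33 for Plek. Leaving out 1 library ended the call of C1qa (adjusted p = 0.0673 and 0.0666 when control IP replicate 1 or 2 was omitted, 0.148 when icKO IP replicate 2 was) and of Ctss (0.0997 when control IP replicate 1 was omitted, 0.0772 for icKO IP replicate 1). Omitting control IP replicate 2 ended that of Csf1r (0.218), and omitting icKO IP replicate 1 that of Trem2 (0.0542). Irf8 was lost when control IP replicate 2 (0.186) or icKO IP replicate 2 (0.119) was omitted. Spi1 was lost when control IP replicate 2 (0.255), icKO IP replicate 1 (0.125) or icKO IP replicate 2 (0.108) was, and with no filter on low counts (0.0538). The length offset ended the calls of C1qa (0.173) and Ctss (0.202). With DESeq2 C1qa (0.116), Ctss (0.103), Csf1r (0.0722), Trem2 (0.0572) and Irf8 (0.114) did not pass, and Spi1 was given no adjusted p. Library totals ended the call of Csf1r (0.107). Scaled to neuron, astrocyte and endothelial genes, 3 members were higher (6.66% of all genes) and 5 lower (52.2%), with the median of all genes at -0.28. Under that scaling Trem2 (0.0532), Irf8 (0.197) and Spi1 (0.0593) lost their calls, and Csf1r was at -0.04. The sum behind it included Meg3 and Snhg11, which rose in the icKO IPs (log2 0.65 and 0.70). Their part in these lost calls was not tested. Scaled to mature oligodendrocyte genes, 28 were higher (84.9% of all genes) and 0 lower (0.684%), Lgmn was at 0.44, and the median of all genes was 0.71.

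Other cell types moved between the IP groups at the same time. Over all genes tested 22.1% rose and 25.2% fell. The 20 mature oligodendrocyte genes summed to 27870 and 28040 CPM in the control IPs and 17220 and 17090 CPM in the icKO IPs, and 19 of them fell. Neuron genes summed to 6856 and 6860 CPM against 9134 and 9206 CPM, with 9 of 20 higher and 3 lower, and astrocyte genes to 3001 and 3000 CPM against 2968 and 2928 CPM. The median change of the neuron genes was 0.06. Much of their sum came from the non-coding Meg3 (2402 and 2394 against 3722 and 3807 CPM) and Snhg11 (870 and 857 against 1367 and 1432 CPM), whereas Snap25, Vsnl1 and Tubb3 fell. Of 15 pericyte genes 14 fell (median -0.98), from sums of 3159 and 3201 CPM to 2188 and 2244 CPM, and of 20 precursor genes 16 fell (median -0.26). The part of these shifts in the members' changes was not tested. Of 35 other microglia-enriched genes 8 rose, near the share of all genes, and 2 fell (median 0.22). Vav1 (0.72), Syk (0.69), the kinase of immunoreceptor signalling, and Cd33 (0.68) rose, and Itgb5 (-0.33), named after its values were seen, was among those that fell. Of 16 microglia activation genes 12 fell and 1 rose (median -0.45). The one that rose was Igf1 (1.01), while Spp1 (-1.24) and Cd63 (-0.84) fell. Among those that fell, Cd9, Gpnmb, Ctsl, Cd63 and Axl were higher in IP than in input (960%, 290%, 191%, 183% and 174% of input). These genes were named after their values were seen, and the others that fell were below input. The list was thus not confined to RNA depleted by the pull-down. Of 15 ligands and partners 4 fell, among them C1ra (-0.88) and C4b (-0.57), and 1 rose. Of 6 tested border macrophage genes 1 rose, Stab1 (0.76), and 0 fell.

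The third comparison set the ratio of IP to input in icKO against that in control. It rests on 1 input per genotype, assumed to vary like the IP pairs. Of 34 members 6 differed (17.6%, against 23.6% of 15936 genes tested), 5 with a higher ratio in icKO (9.67% of all genes) and 1 with a lower one (13.9%). The difference of log2 ratios was 1.11 for Fcrls (adjusted p = 8.49e-04), 0.99 for Plek (0.00133), 1.44 for Ptprc (0.00727), 0.55 for Inpp5d (0.0332), -0.21 for Lgmn (0.0356) and 0.31 for Csf1r (0.0445). Fcrls kept 26.2% of its input level in control and 56.5% in icKO, Plek 53.5% and 106%, and Inpp5d 58.9% and 86.4%. The inputs of Fcrls and Inpp5d were near equal, whereas the Plek input was lower in icKO (log2 -0.37), which enters its difference of ratios. For Ptprc the values were 68.7% and 186%, while its IP levels overlapped (3.53 and 3.51 CPM in control, 3.43 and 4.53 CPM in icKO) and its inputs were at 5.15 and 2.14 CPM. By value, depletion was smaller in icKO for 26 of 34 members, and the ratio was higher in icKO for 48.7% of all genes. Tested within a genotype, 30 members were lower in IP than input in control (33.9% of all genes) and 27 in icKO (34.8%). Leaving out 1 library ended the call of Csf1r (0.212) and Inpp5d (0.0815) without control IP replicate 2, of both (0.05 and 0.12) without icKO IP replicate 1, and of Lgmn without control IP replicate 2 (0.108) or icKO IP replicate 2 (0.0504). Library totals ended Csf1r (0.122) and Inpp5d (0.0604), scaling to neuron, astrocyte and endothelial genes the same genes (0.72 and 0.227), the length offset Csf1r (0.0853), Inpp5d (0.0689) and Lgmn (0.222), and the 5 CPM minimum Lgmn (0.0726). With DESeq2 0 of 34 passed, where 27 adjusted p-values were not given and 3 members had an unadjusted p under 0.05.

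The inputs, with 1 library per genotype and no test, differed little for most members. The icKO input was lower for 22 of 34 (47.4% of all genes of at least 1 CPM), with a median log2 ratio of -0.06, and the 95% counting interval (exact Clopper-Pearson) left out 0 for 10, all of them lower in icKO. Over all genes of at least 1 CPM it lay below 0 for 14% and above 0 for 17.3%, and its width depends on a gene's counts. By more than 1.5-fold 4 members were lower (2.39% of 13866 genes of at least 1 CPM were) and 0 were higher (2.36%). These were Ptprc at 0.416 of the control level (113 and 44 counts), Cd68 at 0.544 (157 and 80 counts), Cyba at 0.552 (89 and 46 counts) and Tyrobp at 0.657 (135 and 83 counts). The homeostatic receptors Cx3cr1 (1.01), P2ry12 (1.06) and Tmem119 (1.07) were near equal in both inputs, with intervals that held 0 on the log2 scale. The receptor P2ry13 was lower in the icKO input, at 0.727 with a log2 interval of -0.89 to -0.034. Plek was at 0.773 with a log2 interval of -0.63 to -0.12. Endothelial genes summed to 395 CPM in the control and 313 CPM in the icKO input, and neuron genes to 17070 and 17170 CPM.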

How the data were processed

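RNA of 6 libraries was analysed from raw read counts per gene symbol, as the authors deposited them. The submitters' processing notes name Trimmomatic 0.39, STAR 2.7.10b and mm10. A stranded total RNA kit for low input was used, per the labels' protocols. Not given in the sources used here: counter, annotation, strand setting, UMI use. Genes that share exons are therefore uncertain. Among members Itgam shares 3450 exon bases with Gm49368 on the same strand and Csf1r 873 with Hmgxb3 on the other. Of 24421 genes 10 had no value in either input and were left out.

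Groups and replicate numbers came from sample titles, and the title of icKO IP replicate 1, which reads cKO, was taken as icKO, as its genotype label says. After TMM scaling, tests used edgeR 4.0.16 (quasi-likelihood F test, filterByExpr, two-sided, Benjamini-Hochberg adjusted p under 0.05 over all genes tested) in R 4.3.3. IP against input used all 6 libraries with genotype as a term (3 residual degrees of freedom), icKO against control the 4 IP libraries (2), and the difference of ratios 4 groups (2). Contrasts within a genotype came from the fit of 4 groups, with filter, scaling and spread taken from all 6 libraries. SEs are the log2 change over the root of F. limma 3.58.1 (voom) and DESeq2 1.42.0 were alternatives. The steps were tested on simulated data. Same-numbered IP libraries did not deviate together (r = -0.0031 across 15069 genes), and no stated pairing exists. The members, gene lists and tests were chosen with earlier results of these data known. All members are named, and from other lists up to 3 genes of at least 1 CPM with the largest change past the threshold. Some genes that this rule names are not reported here.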

Additional observations from a re-analysis of the deposited data

Results flagged for a closer look

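The ratio of IP to input differed between genotypes for 6 members by the interaction test of edgeR's quasi-likelihood fit with Benjamini-Hochberg adjustment over all genes. The difference of log2 ratios (icKO minus control) was 1.11 for Fcrls, 0.99 for Plek, 1.44 for Ptprc, 0.55 for Inpp5d, -0.21 for Lgmn and 0.31 for Csf1r. Each rests on 1 input per genotype. The calls of Csf1r, Inpp5d and Lgmn were lost without single IP libraries and under other scalings or filters, and none of the 6 passed with DESeq2, which left 27 of 34 members without an adjusted p. No group had enough libraries for a search for single libraries far from the others.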

How the results depend on the processing

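The precision of low members is set by depth: 11 of 34 had at most 50 counts in each IP library. With a minimum of 5 CPM 15 of 19 tested members were lower in IP (38.6% of all genes were). Higher and lower members between genotypes numbered 3 and 1 with DESeq2 (15.8% and 18.5% of all genes). Scaled to neuron, astrocyte and endothelial genes they numbered 3 and 5 (6.66% and 52.2% of all genes). Scaled to mature oligodendrocyte genes they numbered 28 and 0 (84.9% and 0.684% of all genes). With the length offset, chosen after seeing the data, 9 were higher and 1 lower (19.6% and 23.4% of all genes). The ratio of IP to input differed by genotype for 0 members with DESeq2 (11.5% of all genes) and 27 with oligodendrocyte scaling (64.9% of all genes). The cause of these shifts was not tested, nor was the part of Meg3 and Snhg11 in the neuron, astrocyte and endothelial sum. Leaving out single libraries gave 27 to 30 members lower in IP, 4 to 8 higher and 1 to 2 lower in icKO IP, and 3 to 10 with a genotype-dependent ratio. That ratio could not be computed without an input.

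The replicate number as a block, which the labels do not tie to shared mice or days (r = -0.0031 across genes), gave 8 members higher and 3 lower in icKO IP. Of all genes 22.6% were higher and 25.7% lower with that block.

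Some log2 ratios of IP to input changed sign. Ptprc was at -0.54 in control libraries, -0.50 with the length offset, -0.0064 with library totals and -2.44 with oligodendrocyte scaling, and Plek at 0.089 in icKO libraries. Oligodendrocyte scaling put Lgmn at -2.02 and Sall1 at -1.89. Scaling to neuron, astrocyte and endothelial genes put Siglech at 0.91, Mrc1 at 0.42, Inpp5d at 0.67, Plek at 0.74, Irf8 at 0.38 and Olfml3 at 0.15. Single libraries left out moved Plek from -0.91 to 0.085 and Ptprc from -0.55 to 0.89.

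Between genotypes the length offset put Tmem119 at 0.034, Ptprc at -0.062 and Fcgr3 at 0.0093, and library totals put Sall1 at -0.064. Oligodendrocyte scaling put C1qa at 0.026, Cx3cr1 at 0.53, Tmem119 at 0.59, Fcgr3 at 0.52, Ctss at 0.19, Lgmn at 0.44, Olfml3 at 0.62 and Cyba at 0.41, and the genotype difference of the Lgmn ratio at 0.48. Scaling to neuron, astrocyte and endothelial genes put C1qb at -0.069, C1qc at -0.022, P2ry12 at -0.14, P2ry13 at -0.046, Csf1r at -0.035, Gpr34 at -0.080, Itgam at -0.15, Mrc1 at -0.034, Cd53 at -0.071, Ptprc at -0.10, Tyrobp at -0.16, Laptm5 at -0.16, Sall1 at -0.26 and Rgs10 at -0.16. Leaving out single libraries gave -0.00068 to 0.39 for C1qb, -0.46 to 0.83 for C1qc, -0.090 to 0.45 for Cd53, -0.023 to 0.87 for Cd68, -0.56 to 0.0020 for Cyba, -0.56 to 0.37 for Fcgr3, -0.23 to 0.069 for Olfml3, -0.13 to 0.43 for P2ry12, -0.035 to 0.36 for Ptprc, -0.032 to 0.072 for Sall1 and -0.22 to 0.52 for Tyrobp. Apart from Csf1r, C1qa, Ctss and Lgmn, none of these had passed the test between genotypes.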

Other observations

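C1qc varied between IP libraries of a group, whereas C1qa and C1qb did not differ there beyond counting error. Of the summed counts of C1qa, C1qb and C1qc, C1qc took 36.3% (95% Wilson interval 33.96% to 38.7%, 1570 counts) in the control input and 34.5% (32.0% to 37.1%, 1315 counts) in the icKO input. In the IPs its share was 31.6% (25.6% to 38.2%, 206 counts) and 18.1% (13.5% to 24%, 204 counts) in control, and 20.3% (14.7% to 27.3%, 153 counts) and 42.6% (35.2% to 50.3%, 162 counts) in icKO. The intervals cover counting error only, and in both genotypes the intervals of the 2 IP libraries did not overlap.

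Few members differed between the IP libraries of a group. Between the 2 control IPs, 2 of 34 members differed by more than counting error (exact 95% interval of the scaled ratio excluding 1), C1qc at 0.493 (0.320 to 0.749) and Fcgr3 at 1.91 (1.22 to 3.04), against 16.7% of 15069 genes. Between the icKO IPs 1 of 34 did, C1qc at 2.29 (1.48 to 3.62), against 16.5% of genes. Genes with more counts have narrower intervals.

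Transcripts of blood leukocytes were low but not absent. S100a9 had 30 counts in control input, 19 in icKO input and 1 to 4 in the IPs, Ccr2 had 9 and 19 in the inputs and 3 to 6 in the IPs, and Plac8 had 11 in the control input and 0 elsewhere. Gzma had 0 counts in all 6 libraries, and Cd3e 1, 0, 0, 1, 0 and 0 counts in the order control input, control IPs, icKO input, icKO IPs, where 3 counts correspond to 0.125 to 0.158 CPM. Among border macrophage genes Stab1 was at 15.8 and 15.6 CPM in the control and icKO inputs, 12.8 and 10.7 CPM in the control IPs and 19.5 and 19.9 CPM in the icKO IPs, while F13a1 had 90 counts in input against 15 and 43 in IP in control, and 78 against 38 and 26 in icKO.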
